A study of Mus musculus with 9 samples.

Results

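The genes described here are the peptides and receptors of the arcuate feeding circuit: Pomc, Cartpt, Agrp, Npy, the melanocortin receptor genes Mc3r and Mc4r, and the neuropeptide Y receptor genes Npy1r, Npy2r and Npy5r. They were taken by symbol, as 9 of the 35975 genes quantified, with all 22 of their transcripts. RNA was sequenced from the mediobasal hypothalamus (MBH), where the arcuate nucleus lies, of wild-type C57Bl/6 male mice at postnatal day 21 (P21), the age of weaning. Mothers of the 4 CTRL libraries drank plain water, and mothers of the 5 Emul libraries drank water with 1% sodium carboxymethyl cellulose (CMC) and 1% polysorbate 80 (P80) before mating and until their pups were weaned. All dams ate standard diet, and the pups were sampled before the treatment that offspring received after weaning. The paper names as a limitation that pups may have met the emulsifiers directly before weaning. The methods count as many litters as libraries in each group, but neither they nor the labels tie a library to a litter or say whether pups were pooled. The labels name no batch, date or dissection for a library.

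Arcuate neurons set food intake through opposing peptides. POMC neurons cut the precursor pro-opiomelanocortin into melanocortins, among them α-MSH, which act on the receptors MC3R and MC4R and reduce feeding, and many of these neurons also make CART, the peptide of Cartpt. AgRP neurons make AgRP, which blocks the same melanocortin receptors, together with neuropeptide Y, which stimulates feeding mainly through the receptors Y1 and Y5, while Y2 sits largely on NPY neurons themselves and restrains them.

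The short coding stretches through which the peptides act are given first, since they tell which transcripts can yield an active product. They were read from the GENCODE M21 transcripts of mm10, 5′ to 3′ on the strand of the gene. In Pomc the capitals mark the codons of the receptor-binding core His-Phe-Arg-Trp, which occurs 3 times, in the γ-MSH, the ACTH and α-MSH, and the β-MSH part of the precursor. These stretches lie at chr12:3959989-3960024, chr12:3960133-3960168 and chr12:3960325-3960360 on the plus strand.
Pomc melanocortin core 1: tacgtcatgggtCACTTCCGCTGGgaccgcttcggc
Pomc melanocortin core 2: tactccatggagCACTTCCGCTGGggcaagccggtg
Pomc melanocortin core 3: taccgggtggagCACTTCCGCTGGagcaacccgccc
The 12 core bases are the same in all 3 copies, and the flanking codons are alike in part. In Agrp the capitals mark the codons of Arg-Phe-Phe, the triplet with which AgRP binds the same receptors, at chr8:105566804-105566836 on the minus strand.
Agrp core 1: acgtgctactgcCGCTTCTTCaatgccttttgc
In Npy the capitals mark the end of the mature peptide, the glycine that is turned into its terminal amide, and the basic pair at which the precursor is cut. This stretch runs across an intron between chr6:49823766-49827513 on the plus strand.
Npy C-terminal 1: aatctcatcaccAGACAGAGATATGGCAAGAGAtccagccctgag

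Estimated counts per library summed to between 28245360 (CTRL 3) and 46067534 (Emul 4). Every member was counted in every library, from 74 to 124 estimated counts for Mc4r up to 1234 to 2663 for Npy. The labelled tissue was checked by marker genes. All 7 markers of AgRP neurons and all 5 of POMC neurons were above the filter on low counts. Pomc is also a pituitary gene, and of 9 pituitary markers the main hormones Gh and Prl had 0 to 2 counts in a library, against 576 to 1232 for Pomc. Other pituitary markers were present, with 129 to 267 counts of Tshb, 85 to 218 of Cga, 42 to 83 of Tbx19, a factor of pituitary cells that express Pomc, and 9 to 59 of Pax7. Pax7, which passed the filter on low counts, was higher in every Emul than in every CTRL library. For Pax7, CTRL 3 lay far below the rest at -1.45 log2 CPM, with CTRL 1, 2 and 4 at 0.02, -0.04 and 0.13. Tbx19, Cga and Tshb, the other pituitary markers tested, had a lower mean in Emul than in CTRL. The groups did not overlap for 6.6% of all genes. The part of pituitary tissue in the Pomc counts was not tested. The summed level of the 9 pituitary markers was 17.9 to 25.4 TPM in CTRL and 13.2 to 25.0 TPM in Emul. The dopamine transporter gene Slc6a3, listed with other arcuate markers, ran from 116 to 3805 counts between libraries, both in CTRL, and from 3.24 to 5.56 log2 CPM in Emul. Th of the same list was also lowest in CTRL 3 (4.64 log2 CPM) and highest in CTRL 4 (5.95). The rest of the list that was tested ran over narrower ranges. These were 5.29 to 5.59 log2 CPM for Prlr, 5.43 to 5.87 for Pdyn and 6.46 to 6.91 for Sst. For Gal the range was 4.05 to 4.53, for Tac2 3.94 to 4.46 and for Ghrh 2.25 to 3.03. The part of the dissection in these ranges was not tested. In bulk tissue such as this, fewer cells of a type and less RNA per cell cannot be told apart.

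Npy was the most abundant of the feeding genes and Mc4r the least. Levels of different genes were compared in TPM, a unit that corrects for transcript length and sums to the same total in each library. The mean over all 9 libraries was 222 TPM for Npy, 89.9 for Cartpt, 44.9 for Pomc, 41.4 for Agrp, 14.2 for Npy2r, 14.0 for Npy1r, 5.87 for Mc3r, 5.27 for Npy5r and 1.73 for Mc4r. Npy stood above 96.1% of the 15340 genes tested by mean TPM, and Mc4r above 7.62%. The lowest value of a peptide gene, 33.1 TPM for Agrp, lay above the highest of a receptor gene, 16.2 TPM for Npy1r. In this order, Npy and Cartpt, Cartpt and Pomc, Agrp and Npy2r, Npy1r and Mc3r, and Npy5r and Mc4r were pairs of neighbours whose ranges over the libraries did not overlap. The other neighbours changed places: Pomc lay above Agrp in 5 of 9 libraries, Npy2r above Npy1r in 7, and Mc3r above Npy5r in 7.

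**Figure D1:**
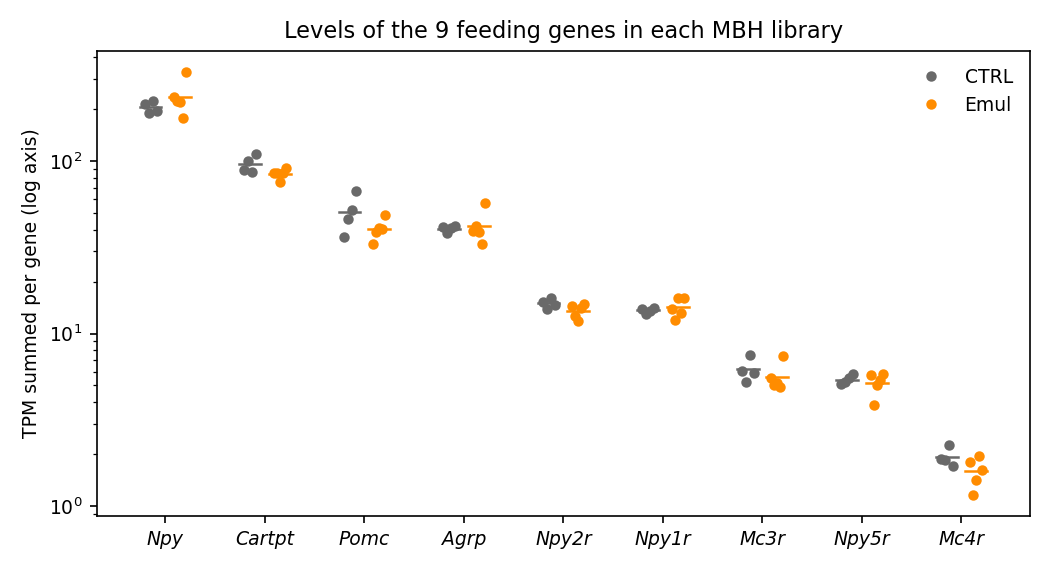
TPM summed per gene on a log axis for the 9 feeding genes, with 1 point per library (grey CTRL, orange Emul) and a bar at each group's mean. Npy lies highest, between 177 and 329 TPM, and Mc4r lowest, between 1.17 and 2.26 TPM, and the points of CTRL and Emul overlap for every gene.

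Maternal emulsifiers were compared with water for the 9 genes to see whether the feeding circuit was transcribed differently at weaning. No member passed the comparison of Emul with CTRL by limma-voom at an unadjusted p-value under 0.05, a threshold that 15.8% of the 15340 genes tested passed. By edgeR 1 member did (Npy), and by DESeq2 and limma-trend 0 did. Adjusted p-values under 0.05 were reached by 0 members and by 0.117% of all genes. A 1.5-fold change with an unadjusted p-value under 0.05 was reached by 0 members and by 0.469% of genes. For its own 1.5-fold cutoff the paper's methods name a p-value under 0.05, while the legend of its volcano plot names a false discovery rate. The CTRL and Emul values overlapped for all 9 members, while for 6.6% of all genes they did not. By sign 5 members were lower and 4 higher in Emul, with a median log2 fold change (Emul over CTRL) of -0.011 against 0.0015 for all genes. The 95% interval of the fold change lay within 1.5-fold in either direction for all 9 members in this fit.

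**Figure D2:**
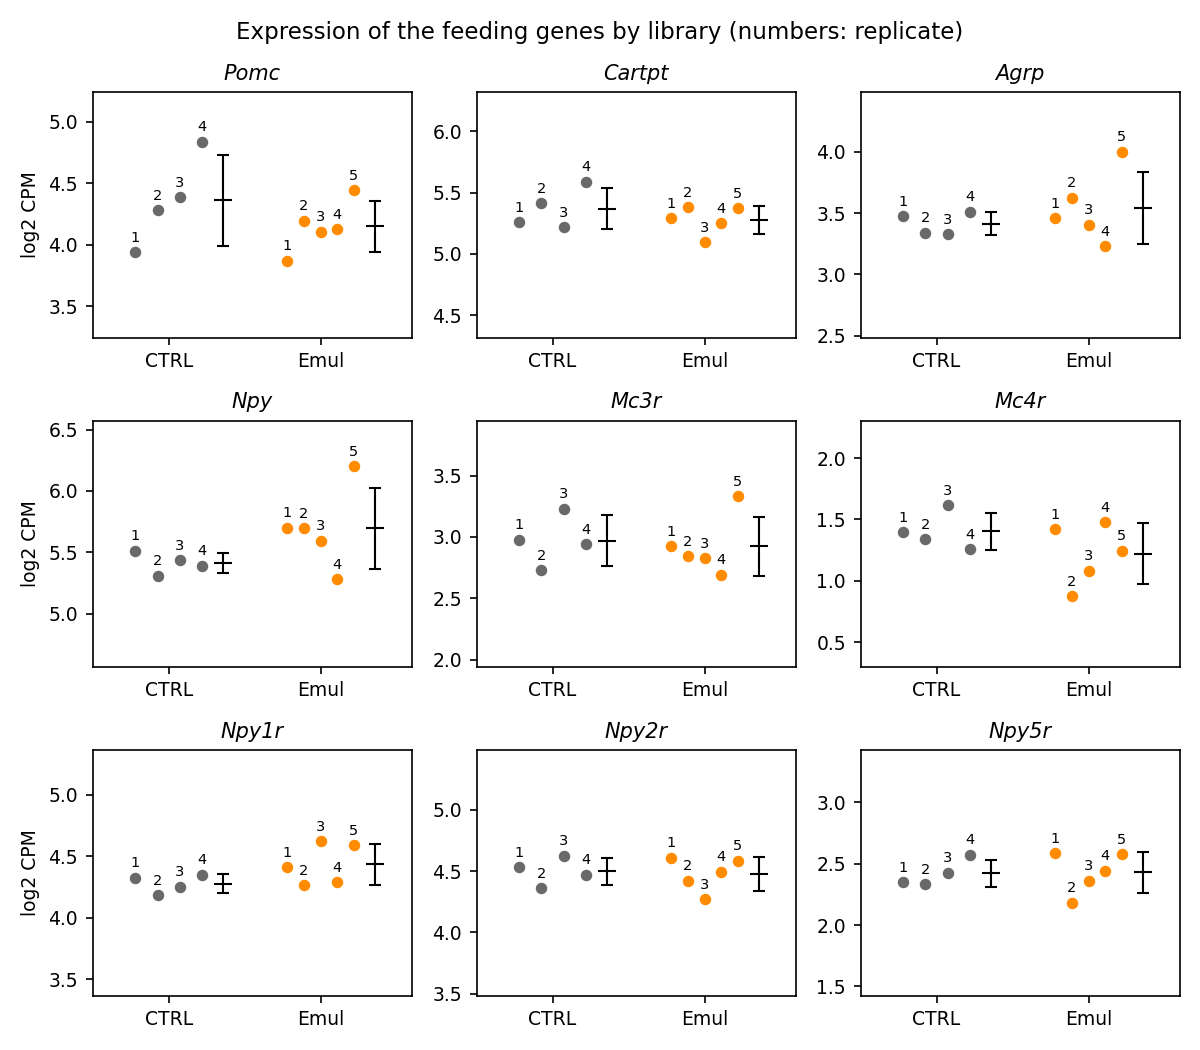
Log2 CPM of each feeding gene in the 4 CTRL and 5 Emul libraries, numbered by replicate, with the mean and SD of each group as a black bar. Each panel spans 2 log2 units. Emul 5 is the highest library for Npy (6.20) and Agrp (4.00), and CTRL 4 the highest for Pomc (4.84).

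**Figure D3:**
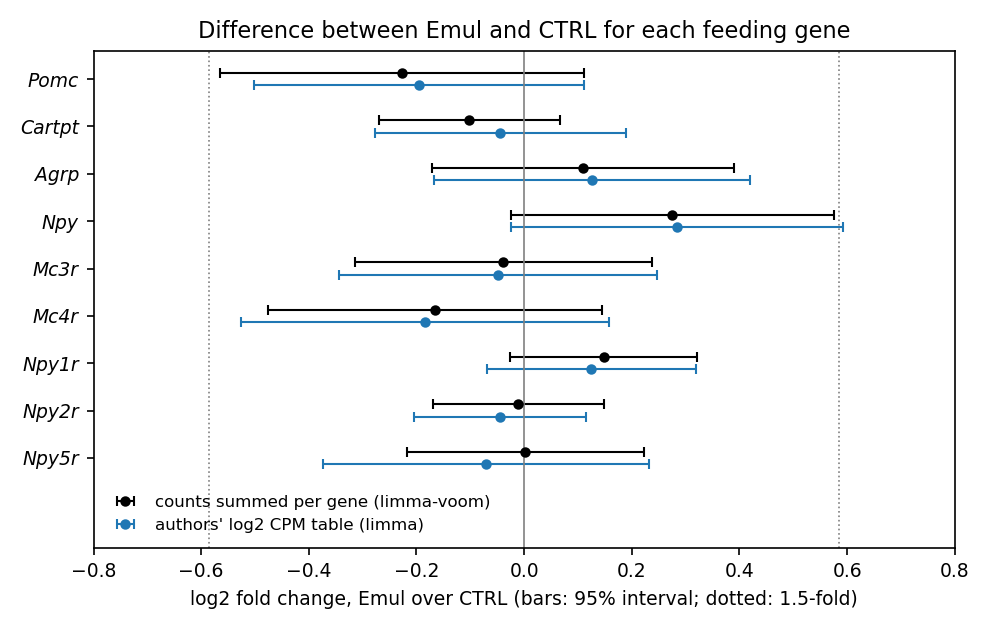
Log2 fold change of Emul over CTRL with its 95% interval for each gene, from counts summed per gene (black) and from the authors' log2 CPM table (blue), with dotted lines at 1.5-fold. All intervals include 0, and the widest reach is that of Npy, up to 0.58 in black and 0.59 in blue.

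Among the genes that reduce feeding, Pomc (chr12:3954951-3960642) had the largest difference by size, but its libraries were widely spread. In CTRL 1 to 4 it stood at 3.94, 4.28, 4.39 and 4.84 log2 CPM, and in Emul 1 to 5 at 3.87, 4.19, 4.11, 4.13 and 4.44. The highest value was CTRL 4, and Emul 1 was the only library under all CTRL libraries. The fold was 0.854 (95% interval 0.676 to 1.08), a log2 fold change of -0.23 ± 0.15 (SE) with an unadjusted p = 0.17 and an adjusted p = 0.50 by limma-voom, and an exact permutation test gave p = 0.32. Single control libraries decided the size: the log2 fold change was -0.05 without CTRL 4 (limma-voom, unadjusted p = 0.71) and -0.37 without CTRL 1 (unadjusted p = 0.019). The spread of Pomc within groups (SD 0.29 on the log2 scale) was larger than that of 98.3% of genes within 0.5 log2 CPM of its level.

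Cartpt (chr13:99898489-99901091), which codes for the CART peptide, had a smaller difference and spread than Pomc. Its log2 CPM was 5.26, 5.41, 5.22 and 5.59 in CTRL 1 to 4 and 5.29, 5.38, 5.10, 5.25 and 5.37 in Emul 1 to 5. Emul 3 was the lowest library and CTRL 4 the highest, and the other 7 lay between 5.22 and 5.41. The fold was 0.932, with a log2 fold change of -0.10 ± 0.08 (SE, 95% interval -0.27 to 0.07, limma-voom adjusted p = 0.55, exact permutation test p = 0.37). Leaving out a single library moved the log2 fold change both ways. It was -0.024 without CTRL 4 (limma-voom, unadjusted p = 0.74) and -0.06 without Emul 3 (unadjusted p = 0.44). Without CTRL 3 it was -0.15 (unadjusted p = 0.087), and without CTRL 1 it was -0.14 (unadjusted p = 0.12).

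Of the genes that drive feeding, Npy (chr6:49822710-49829507) showed the largest difference of all members. It stood at 5.51, 5.31, 5.44 and 5.39 log2 CPM in CTRL 1 to 4, and at 5.70, 5.70, 5.59, 5.28 and 6.20 in Emul 1 to 5. Emul 1, 2, 3 and 5 thus lay above every CTRL library, and Emul 4 lay below them all. The fold was 1.21 (95% interval 0.983 to 1.49), a log2 fold change of 0.28 ± 0.14 (SE) with an unadjusted p = 0.069 and an adjusted p = 0.35 by limma-voom. An exact permutation test gave p = 0.13, where the smallest value this design allows is 0.0079. With edgeR the unadjusted p was 0.043. The value rested on 2 Emul libraries that lay apart in opposite directions: without Emul 5 the log2 fold change was 0.15 (limma-voom, unadjusted p = 0.11), and without Emul 4 it was 0.39 (unadjusted p = 0.0053, exact permutation test p = 0.029).

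Agrp (chr8:105566698-105637393) followed Npy in which libraries were high, with a smaller difference between the groups. Its log2 CPM was 3.47, 3.34, 3.33 and 3.51 in CTRL 1 to 4 and 3.46, 3.62, 3.40, 3.23 and 4.00 in Emul 1 to 5. The CTRL libraries were close together, and Emul held both the highest library, Emul 5, and the lowest, Emul 4. The log2 fold change was 0.11 ± 0.13 (SE, limma-voom adjusted p = 0.72, exact permutation test p = 0.49), and 0.0040 without Emul 5 (limma-voom, unadjusted p = 0.96). Within each library Npy was 4.62 to 5.96 times as abundant as Agrp in TPM. The mean ratio over the 4 CTRL libraries was 5.04 ± 0.351 (SD), and over the 5 Emul libraries 5.62 ± 0.274 (SD), and it lay above all CTRL values in 3 of 5 Emul libraries. An exact permutation test of the ratio gave p = 0.040, or 0.20 after adjustment over the 5 ratios examined. With each library left out in turn the unadjusted exact p was 0.018 without CTRL 3 and 0.057 to 0.086 otherwise.

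Markers of the neighbourhood were read in the same libraries, since Emul 5 also stood apart for other genes. The 5 AgRP neuron markers other than Agrp and Npy averaged 0.21 log2 units above their own means in Emul 5, and between -0.20 and 0.13 in the other 8 libraries. Their summed level was 52.0 to 75.0 TPM in CTRL and 44.0 to 57.3 TPM in Emul, and none was at 0 in any library. The 5 did not move as one. Emul 5 was the highest library for Bsx (4.18 log2 CPM), a transcription factor that maintains Npy and Agrp expression, and for Ghsr (3.83), and Emul 3 for Acvr1c (4.22), an activin-type receptor. Otp, a factor in the development of these neurons, had the highest log2 CPM of the 5. It was highest in CTRL 3 (6.11), the library with the 75.0 TPM, and lowest in Emul 3 (5.11). Markers of the paraventricular nucleus, centred on their means, also averaged highest in CTRL 3 (0.84 log2 units) and lowest in Emul 3 (-0.69). The part of that nucleus in the Otp values and in the summed level was not tested. Corin was highest in CTRL 2 (0.996) and CTRL 3 (0.985). Both lateral hypothalamic markers, Hcrt and Pmch, were lowest in Emul 3 and Emul 5, at 5.30 and 5.22 log2 CPM for Hcrt and 7.90 and 7.83 for Pmch, with a summed level of 1487 to 1682 TPM in CTRL and 865 to 1502 TPM in Emul. The part of these differences in the Npy values was not tested.

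Neither gene of the brain melanocortin receptors passed the test, and both were at low levels. Mc3r (chr2:172248492-172251114), which is carried by AgRP and POMC neurons among others, stood at 2.98, 2.73, 3.23 and 2.94 log2 CPM in CTRL 1 to 4 and at 2.92, 2.84, 2.82, 2.69 and 3.33 in Emul 1 to 5. CTRL 3 and Emul 5 were high and the other libraries lay close together. Its log2 fold change was -0.04 ± 0.13 (SE, limma-voom adjusted p = 0.91), with a fold between 0.804 and 1.18 by its 95% interval. Mc4r, the receptor through which α-MSH restrains intake in the paraventricular nucleus, had 1.40, 1.34, 1.62 and 1.26 log2 CPM in CTRL and 1.42, 0.88, 1.08, 1.48 and 1.25 in Emul. Emul 2 and Emul 3 were the lowest, and the other Emul libraries lay within or next to the CTRL range. With the fewest counts of all members, Mc4r had a fold of 0.892 (95% interval 0.719 to 1.11) and a log2 fold change of -0.17 ± 0.14 (SE, limma-voom adjusted p = 0.60, exact permutation test p = 0.25). Without Emul 2 it was -0.07 (limma-voom, unadjusted p = 0.59). In TPM, Mc3r was 2.52 to 4.63 times as abundant as Mc4r.

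The genes of the neuropeptide Y receptors had an SD within groups of 0.13 to 0.15 log2 CPM, against 0.23 to 0.29 for Agrp, Npy and Pomc and 0.14 for Cartpt. Npy1r (chr8:66697192-66706792), the gene of the Y1 receptor, stood at 4.32, 4.18, 4.25 and 4.35 log2 CPM in CTRL 1 to 4 and at 4.41, 4.26, 4.62, 4.29 and 4.59 in Emul 1 to 5. Emul 1, 3 and 5 lay above every CTRL library and the other Emul libraries lay within the CTRL range. The fold was 1.11 (95% interval 0.983 to 1.25), with a log2 fold change of 0.15 ± 0.08 (SE), an unadjusted p = 0.088 and an adjusted p = 0.39 by limma-voom. An exact permutation test of Npy1r gave p = 0.14. Its unadjusted limma-voom p was 0.031 without Emul 2 and 0.038 without Emul 4. Npy2r (chr3:82538383-82548084), for the Y2 receptor, ranged from 4.36 to 4.63 log2 CPM in CTRL and from 4.27 to 4.61 in Emul, with a log2 fold change of -0.011 ± 0.07 (SE, limma-voom adjusted p = 0.96). The interval of its fold ran from 0.890 to 1.11. Npy5r (chr8:66679965-66688128), for the Y5 receptor, ranged from 2.33 to 2.57 log2 CPM in CTRL and from 2.18 to 2.58 in Emul, and its fold was 1.00 (95% interval 0.860 to 1.17). Npy5r and Npy1r lie head to head with 9063 bases between them.

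Of the 6 pairs of peptide genes, 1 passed a test of correlation after adjustment, Agrp with Npy, and by Pearson's r only. Agrp and Npy had a Pearson r of 0.92 across the 9 libraries (exact permutation p = 0.0028, adjusted p = 0.017 over 6 pairs) and a Spearman rho of 0.70 (p = 0.043, adjusted p = 0.26). Emul 5 carried much of this: r was 0.58 without Emul 5 and Emul 4, the libraries farthest from the median, and 0.71 without Emul 5 alone. Pomc and Cartpt had an r of 0.69 (exact permutation p = 0.044, adjusted p = 0.13) and a rho of 0.48 (p = 0.19, adjusted p = 0.39). Their r was 0.39 without CTRL 4 and Emul 1, and 0.30 without CTRL 4 alone. The other 4 pairs, of Pomc or Cartpt with Agrp or Npy, had r between -0.025 and 0.33. Which cells the counts of each gene came from is not known in bulk tissue. Without the 2 libraries farthest from the median the r was 0.42 for Pomc and Agrp, 0.43 for Pomc and Npy, 0.51 for Cartpt and Agrp, and 0.37 for Cartpt and Npy. The values of these 4 pairs were then close to or above the 0.39 of Pomc and Cartpt. Points share a tissue piece and the scaling of its library, and with n = 9 these pooled values mix the spread of libraries with the difference between the groups.

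**Figure D4:**
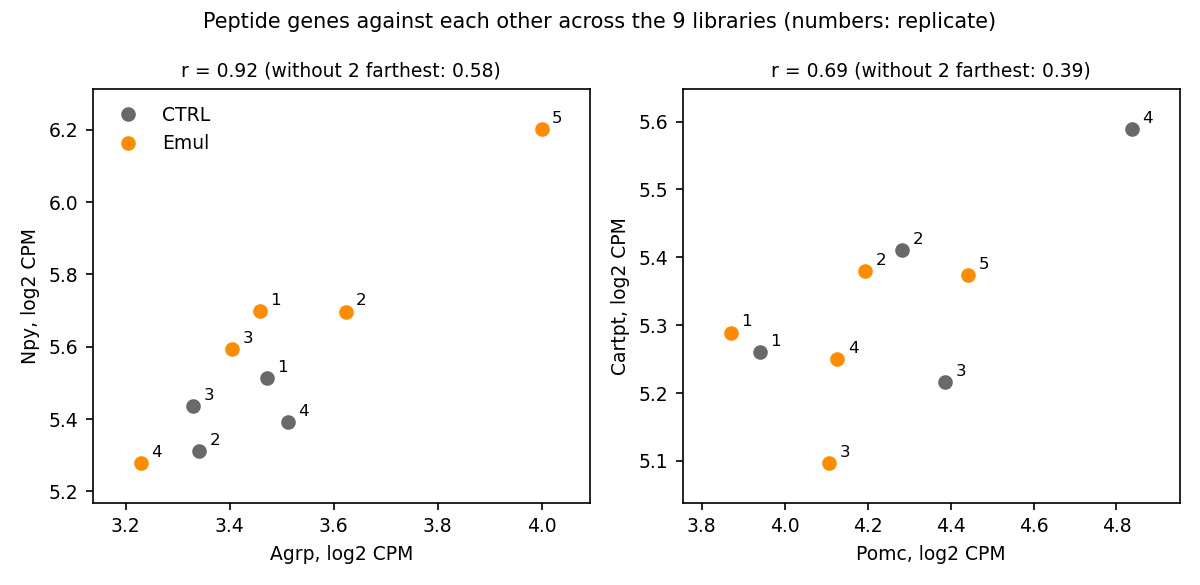
Npy against Agrp (left) and Cartpt against Pomc (right), each in log2 CPM, with 1 numbered point per library (grey CTRL, orange Emul). Emul 5 lies far up on the left and CTRL 4 on the right, and r falls from 0.92 to 0.58 and from 0.69 to 0.39 without the 2 farthest libraries.

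As a description of likeness, genes were ranked by the root-mean-square (RMS) difference of their log2 CPM from that of a peptide gene, both centred on their own means over the 9 libraries. Agrp was the gene nearest to Npy of all genes tested (RMS 0.11), followed by Myom3 (0.12) and the predicted gene Gm10359 (0.13). The 3 nearest to Agrp were Prph (0.090), a neuronal intermediate filament gene, Rprml (0.093) and Gabra5 (0.10), a GABA-A receptor subunit gene, and Npy was the ninth of its neighbours. Nearest to Pomc were Aqp4 (0.13), the astrocyte water channel gene, Gm44984 (0.13) and Lrrc56 (0.14), and Cartpt held rank 101. Nearest to Cartpt were Stard6 (0.058), the histamine receptor gene Hrh1 (0.058) and Gm29666 (0.065). A gene with a small spread is near to many others on this measure, and Cartpt, with an SD of 0.14 over the libraries, is such a gene beside Npy, with 0.28. The spread within groups was larger than that of 99.1% of genes of similar level for Npy, 94.6% for Agrp, 94.2% for Cartpt and 91.0% for Mc3r. The share was 86.7% for Npy1r, 85.5% for Npy2r, 52.6% for Mc4r and 45.3% for Npy5r.

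Taken singly, none of the 19 member transcripts that passed the filter (CPM above 0.5 in at least 4 libraries), out of 22, had an unadjusted p-value under 0.05 by limma-voom, against 9.92% of the 49604 transcripts tested. Npy, Mc3r and Mc4r have 1 transcript each. For Pomc, Pomc-201 held 59.1% to 73.8% of the gene's estimated counts in a library and Pomc-202 23.3% to 37.6%. Both code for the whole precursor with its 3 melanocortin cores, and Pomc-202 lacks 30 bases at the start of exon 2, before the coding part. Pomc-204, the third with all cores, rounded to 0 counts in every library. Pomc-203 and Pomc-205, whose annotated ends are incomplete and hold no core, had at most 5.95% and 0.659%. The log2 fold changes were -0.19 ± 0.15 (SE) for Pomc-201 and -0.29 ± 0.28 for Pomc-202, and the intervals of both include 0.

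Cartpt was split between a long and a short coding form, nearly evenly in estimated counts. In TPM, which corrects for the greater length of Cartpt-202, the long form Cartpt-201 held 59.3% on average and 52.6% to 61.4% in a library. The stretches where the forms differ are shown with the bases that Cartpt-201 alone carries in capitals, at chr13:99900041-99900079 on the minus strand.
Cartpt-201 extra coding bases: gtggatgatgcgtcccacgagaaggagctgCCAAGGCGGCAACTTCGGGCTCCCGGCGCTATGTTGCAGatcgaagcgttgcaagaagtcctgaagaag
Cartpt-202 across the same junction: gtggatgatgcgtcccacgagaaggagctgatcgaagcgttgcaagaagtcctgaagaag
The 39 bases add 13 codons and leave the reading frame intact, which gives the long and short forms of pro-CART. Of the estimated counts, Cartpt-201 held 46.7% ± 4.27 (SD) in the 4 CTRL libraries and 48.1% ± 1.43 (SD) in the 5 Emul libraries (exact permutation test p = 0.64). CTRL 3 was the lowest at 40.4%, and the other 8 libraries lay between 45.7% and 49.6%. Cartpt-202 is also annotated with 450 more bases at its 5′ end, so reads from that end and reads over the junction both set its share and cannot be told apart in these files.

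Agrp had the least stable split. Agrp-201, the form that starts next to the coding exons, held 79.9% to 86.5% of the counts in CTRL and 55.8% to 97.4% in Emul. Agrp-202, which starts 69095 bases upstream of Agrp-201 and codes for the same protein, was estimated at 36.5, 54.5, 16.0 and 68.9 counts in CTRL 1 to 4 and at 38.8, 64.1, 0.0, 141.8 and 59.3 in Emul 1 to 5. Emul 4 was thus high and Emul 3 at 0, and both lie in Emul. Its log2 fold change was -0.60 ± 1.18 (SE), with a limma-voom adjusted p = 0.89. The sign rested on Emul 3, since the log2 fold change of Agrp-202 was 0.62 without it (limma-voom, unadjusted p = 0.18). The mean share of Agrp-202 in the counts was 10.4% in CTRL and 13.1% in Emul. All 3 Agrp transcripts hold the Arg-Phe-Phe codons. The predicted gene Gm38250 overlaps Agrp on the other strand, and whether the strand was used in counting is not given in the sources used here. Emul 4, the library lowest for Agrp as a whole, was also lowest for Agrp-201, with 235.9 counts.

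In the receptor genes, the split between transcripts that code for the same protein varied between libraries, and the values of the groups overlapped. Npy1r-201 held 63.7% to 73.0% of the Npy1r counts and Npy2r-201 37.8% to 61.1% of the Npy2r counts. Npy5r-201 ran from 52.3% in Emul 3 to 82.2% in Emul 2. Exact permutation tests of the share gave p = 0.54 for Npy1r-201, p = 0.96 for Npy2r-201 and p = 0.70 for Npy5r-201. The smallest unadjusted p of a member transcript was that of Npy2r-204, with a log2 fold change of -0.39 ± 0.20 (SE, limma-voom unadjusted p = 0.091, adjusted p = 0.56). It was estimated at 78.0, 80.4, 32.4 and 92.0 counts in CTRL 1 to 4 and at 48.1, 69.3, 46.9, 59.4 and 53.7 in Emul 1 to 5. CTRL 3 was low beside the other CTRL libraries, and without it the log2 fold change of Npy2r-204 was -0.55 (limma-voom, unadjusted p = 0.0062).

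**Figure D5:**
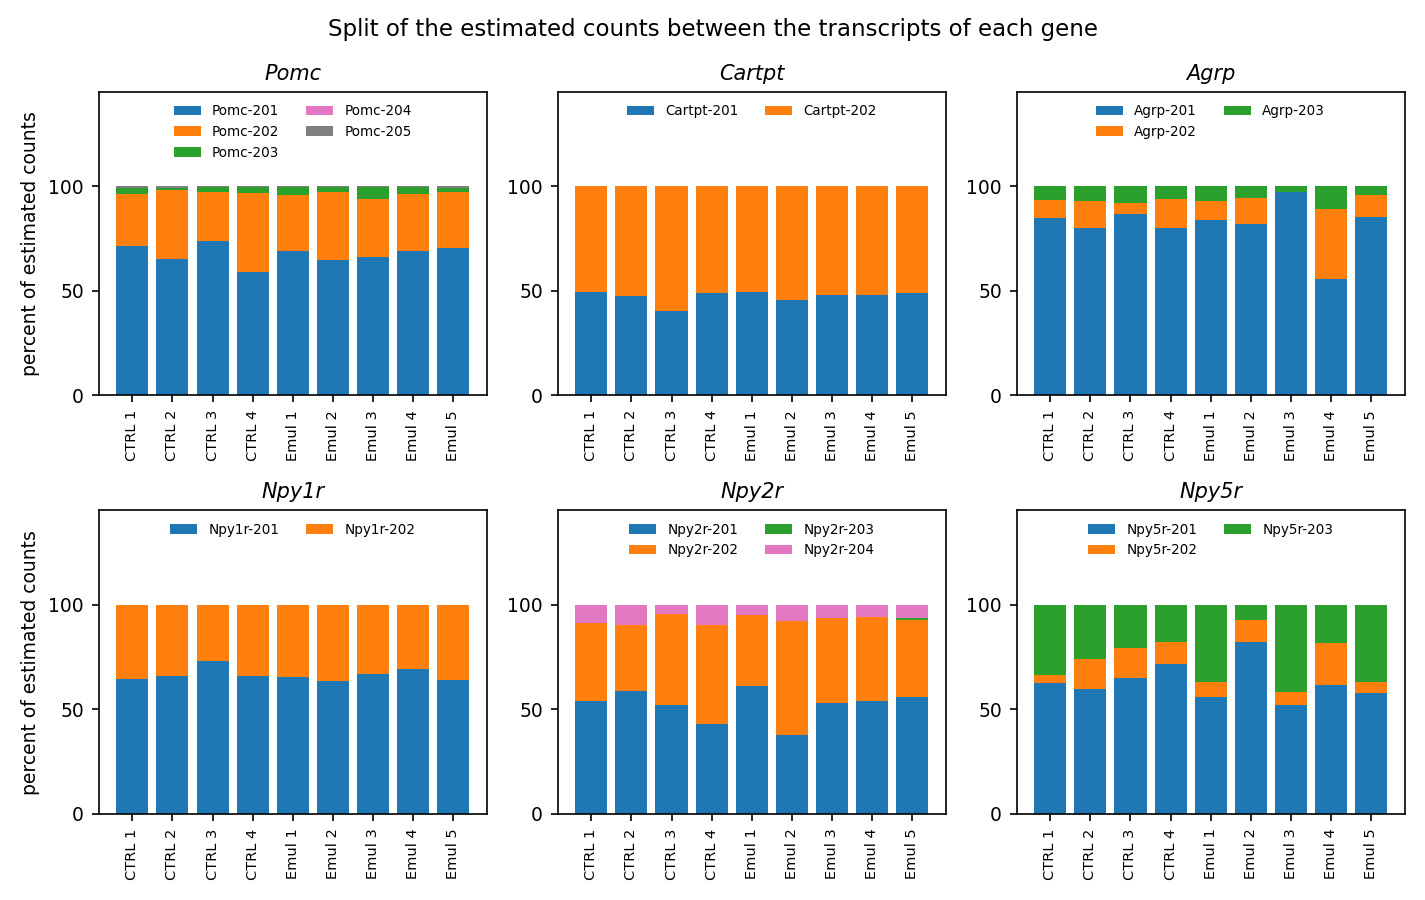
Percent of each gene's estimated counts assigned to its single transcripts in the 4 CTRL and 5 Emul libraries, for the 6 members with more than 1 transcript. Agrp-201 ranges from 55.8% in Emul 4 to 97.4% in Emul 3, while Cartpt-201 stays between 40.4% and 49.6%.

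The authors' gene table of log2 CPM held all 9 members, and there too none had an unadjusted p-value under 0.05 by limma, against 13.5% of its 14592 rows. For Pomc, Cartpt, Npy1r and Npy5r its values followed a single transcript (Pomc-201, Cartpt-201, Npy1r-201 and Npy5r-201) to within an RMS of 0.011, 0.016, 0.0021 and 0.018 on the log2 scale, and differed from the sum over all transcripts by an RMS of 0.57, 1.08, 0.59 and 0.68. For Agrp and Npy2r the table followed the sum of all transcripts (RMS 0.035 and 0.027). Transcripts that it did not follow are those with the higher Ensembl numbers. The mean level of Cartpt in CTRL was therefore 4.38 log2 CPM in the table and 5.37 in the sums, and its log2 fold change -0.04 ± 0.11 (SE) and -0.10 ± 0.08. The sign of Npy5r differed, at -0.07 ± 0.14 in the table against 0.0024 ± 0.10, and for Npy the values were 0.28 ± 0.14 in both.

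Other genes of the pathway were counted in 4 lists. Of 23 partners of the melanocortin and NPY systems, 15 were tested by limma-voom. An unadjusted p-value under 0.05 was reached by 3, all higher in Emul, and by 15.8% of all genes. After adjustment 0 of the list passed. The median log2 fold change of this list was 0.018, against 0.0015 for all genes. The 3 were Cpe (0.15 ± 0.04, SE), the carboxypeptidase that trims peptides after cleavage, Pcsk2 (0.10 ± 0.04), the convertase that yields α-MSH, and Atrnl1 (0.14 ± 0.06), a relative of the attractin gene. Pcsk1 (0.014 ± 0.06), the convertase that makes the first cuts in the POMC precursor, and Mrap2 (-0.14 ± 0.07), an accessory protein of MC4R, did not pass. Listed at 0 in every library were Pyy and Ppy, the genes of the other peptides of the NPY family.

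Of 21 regulators of arcuate feeding neurons, all were tested and 3 passed (15.8% of all genes did), all lower in Emul, with a median log2 fold change of -0.05. They were Irs1 (-0.32 ± 0.06, SE), an adaptor of the insulin receptor, Sirt1 (-0.15 ± 0.05), a deacetylase, and Ptpn1 (-0.09 ± 0.04), a phosphatase that dampens leptin and insulin signalling. Their groups did not overlap, as for 6.6% of all genes, with Irs1 between 5.01 and 5.22 log2 CPM in CTRL and between 4.68 and 4.93 in Emul, and its adjusted p was 0.086 (limma-voom). Lepr, the leptin receptor gene through which the hormone raises Pomc and lowers Agrp expression, had a log2 fold change of 0.07 ± 0.09, and Ghsr, the ghrelin receptor gene of AgRP neurons, 0.05 ± 0.10.

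Of 15 developmental factors of these neurons, 14 were tested and 2 passed, both lower, with a median of -0.08. One was Isl1 (-0.22 ± 0.08, SE), which switches Pomc on in the embryo and is kept in POMC neurons, with 4.56, 4.43, 4.76 and 4.59 log2 CPM in CTRL and 4.39, 4.35, 4.18, 4.30 and 4.57 in Emul. All Emul libraries but Emul 5 lay under the CTRL range. The other was Dlx2 (-0.32 ± 0.14), a factor of GABA neurons. Of 9 genes listed as targets downstream of melanocortin receptors, all were tested, with a median of 0.025. Only 1 passed, Bdnf (0.31 ± 0.11), a growth factor made by neurons that melanocortins activate. The list holds Sf1, a splicing factor gene, which is separate from the ventromedial gene Nr5a1. The genes passing in these 3 lists had adjusted p-values of 0.086 or more by limma-voom. Over the 4 lists, 9 of 59 genes tested passed (15.3%), close to the 15.8% of all genes. The count was 5 (8.47%) without CTRL 3 or without Emul 3, where 12.8% and 14.9% of all genes passed, and 13 (22%) without Emul 4, where 17.4% did.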

How the data were processed

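RNA of the mediobasal hypothalamus of male mice was sequenced by the authors from 9 stranded mRNA libraries, 4 CTRL and 5 Emul, and the groups follow the sample labels. The authors ran kallisto 0.46.1 on mm10 and deposited estimated counts, which are not normalized, and TPM for 119414 transcripts per library. They also deposited a log2 CPM table for genes. The processing notes also name FastQC 0.11.9 and edgeR 3.40.1. How transcripts were summed for the table is not given in the sources used here.

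Transcripts were matched to GENCODE M21 genes by identifier (97.8%, with 1.20% to 1.27% of counts unmatched and left out) and estimated counts were summed per gene. Genes with CPM above 1 in at least 4 libraries (15340) were compared by limma-voom (limma 3.58.1, edgeR 4.0.16 for TMM, R 4.3.3), with Benjamini-Hochberg adjustment over all genes. Log2 CPM of single libraries used a prior count of 2. Alternatives were edgeR's quasi-likelihood test and DESeq2 1.42.0 on rounded counts, limma-trend, quality weights, other scalings and filters, lengthScaledTPM, the authors' table, the replicate block and each library left out. For single values, exact permutation tests (two-sided) enumerated all 126 ways to place 4 and 5 labels. Whether 2 libraries share an animal or litter is not known from the labels. A chi-square test of counts gave at least 7.15 per gene for any pair of the 9 libraries, so no library repeats another. Depth gave each member but Mc4r at least 152 counts in a library. The scripts were tested on simulated counts.

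The members and the lists were chosen with earlier results of these data known. Named were all members, up to 4 genes per list with the smallest unadjusted p under 0.05, and the 3 genes most like each peptide gene. Other genes, such as Pcsk1, Mrap2, Lepr, Ghsr, Acvr1c, Bsx, Otp, Corin, Tbx19, Pax7 and Slc6a3, were named after their values were seen. The ratios between members were added later, as was leaving out each library in the correlations.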

Additional observations from a re-analysis of the deposited data

How the results depend on the processing

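The count of members past an unadjusted p-value of 0.05, which was 0, became 1 with edgeR (Npy) and stayed 0 under the other tools, scalings and filters tried. It was 0 to 2 when each library was left out in turn, with Npy and Npy1r passing without Emul 4. The corresponding ranges were 0 to 1 for the exact test, 0 to 2 for single transcripts, 0 to 1 for the authors' table, and 5 to 13 for the genes of the 4 lists. The order of levels kept 5 of 9 ranks when the most abundant transcript alone was used. Signs near 0 turned. Mc3r ran from -0.133 to 0.0306 (log2 fold change) over the left-out libraries, Npy2r from -0.0576 to 0.0380, with 0.011 under quality weights, and Npy5r from -0.0369 to 0.0662, with -0.0275 under library size alone and -0.0712 in the authors' table. The r of Pomc and Npy ran from -0.46 to 0.25 and was 0.43 without the 2 farthest libraries, and that of Cartpt and Npy from -0.24 to 0.25 and 0.37. The exact p of the Npy to Agrp ratio was 0.063 with estimated counts in place of TPM. Over all genes, adjusted calls were 18 by limma-voom, 33 by edgeR, 341 by DESeq2, 8 by limma-trend, 36 with quality weights, 60 with library size alone, 10 with median-of-ratios size factors, 5 without a filter, 6 with lengthScaledTPM and 0 to 24 with a library left out. The cause of these changes was not tested.

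Deviations of same-numbered libraries from their group means correlated at -0.16, -0.015, 0.021 and -0.055. For libraries with different numbers the values ran from -0.159 to 0.181. Such correlations cannot tell whether same-numbered libraries were handled together, which the labels do not say. With the replicate number as a block, 1 member passed, Pomc, at -0.32 (limma-voom, unadjusted p = 0.019), Npy5r turned to -0.029, and 1 gene of all had an adjusted p-value under 0.05. Mc4r had the fewest counts of the members, 74 to 124 in a library, and what depth adds to its spread was not tested.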

Other observations

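Markers of regions around the arcuate nucleus were read as a description of the dissections. An unadjusted p-value under 0.05 by limma-voom was reached by 15.8% of all genes, and by 1 of 4 ventromedial markers, Fezf1 (-0.32 ± 0.10, SE). Both lateral hypothalamic markers passed, Hcrt (-0.70 ± 0.23) and Pmch (-0.32 ± 0.10), and of the 5 suprachiasmatic markers tested Vip did (-1.50 ± 0.57). Of 5 neuronal genes 4 passed. The general neuronal genes Rbfox3 (0.12 ± 0.03) and Snap25 (0.11 ± 0.05) were higher, and Syt1 did not pass. Slc17a6 (0.29 ± 0.10), a transporter gene of glutamate neurons, was higher. Slc32a1 (-0.27 ± 0.12), a transporter gene of GABA and glycine neurons, was lower. Of the 4 pituitary markers tested Pax7 passed (0.72 ± 0.28), at 9 to 59 counts, with every Emul library above every CTRL library. The others were lower in Emul by sign, Tbx19 (-0.27 ± 0.13), Cga (-0.09 ± 0.25) and Tshb (-0.07 ± 0.10). Groups that did not overlap were found for 6.6% of all genes. No tested marker of tanycytes (9), paraventricular nucleus (5), thalamus (4), cortex and hippocampus (3), AgRP neurons (7) or other arcuate neurons (8) passed, and of the 5 POMC neuron markers Isl1 did. Averages of the thalamic markers, each centred on its mean, lay at -0.53, 0.11, -0.23 and -0.68 log2 units in CTRL 1 to 4 and at 0.57, 0.42, 1.36, -0.41 and -0.61 in Emul 1 to 5. Those of the paraventricular markers lay at -0.10, -0.08, 0.84 and -0.28 in CTRL 1 to 4. In Emul 1 to 5 they lay at 0.23, -0.19, -0.69, 0.50 and -0.23. The summed paraventricular level was 602.9 to 1684 TPM in CTRL and 428.5 to 1117 TPM in Emul. What this variation adds to the Mc4r values was not tested. Kiss1, an arcuate marker of kisspeptin neurons, had 0 to 13.9 counts. Across 36 groups of member values, ratios and lists, no library stood beyond Dixon's critical value, where chance alone gives about 1.8. These groups do not cover every marker list.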
